A study of Mus musculus with 10 samples.

Results

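Messenger RNA of 10 genes that bring arginine into the cell and turn it into nitric oxide, citrulline and polyamines was followed in RAW264.7 cells, a mouse macrophage line. The 8 described here are Nos2, Gch1, Ass1, Asl, Slc7a1, Slc7a2, Odc1 and Srm, and the genes were taken by their Ensembl identifiers from the 43432 genes counted. All 10 were found, and all 10 were among the 14172 genes that passed the filter on low counts and were tested. The study asked how **1**, a keto-hexadecenoic acid with an enone group, alters the RNA of LPS-stimulated macrophages. Libraries were made in 5 conditions with 2 libraries each, labelled as biological replicates. The conditions were 0.5% DMSO alone (DMSO), 0.5% DMSO plus LPS (DMSO + LPS), and LPS together with 32, 10 or 3.2 µM of **1**, with LPS always at 1 µg/mL. Cells were plated at 250000 per well, received **1** or DMSO for 1 h before LPS, and gave RNA after 12 h. All conditions used the same line, which is a transformed line and not primary macrophages, and no condition held **1** without LPS.

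Arginine enters macrophages through cationic amino acid transporters, of which Slc7a1 (CAT1) is the general form and Slc7a2 (CAT2) the form known for its induction in activated cells. Inducible nitric oxide synthase (Nos2) splits arginine into nitric oxide and citrulline, needs tetrahydrobiopterin, whose synthesis starts with GTP cyclohydrolase (Gch1), and citrulline is returned to arginine by argininosuccinate synthase (Ass1) and argininosuccinate lyase (Asl). On the way to polyamines, ornithine decarboxylase (Odc1) makes putrescine from ornithine, and spermidine synthase (Srm) turns putrescine into spermidine.

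LPS raised 5 of the 8 genes, Nos2, Gch1, Ass1, Slc7a2 and Odc1, and lowered 0, where 28.1% of all tested genes were called. Of these 5, **1** at 32 µM, where 4.17% were called, lowered Nos2 4.55-fold, Odc1 3.05-fold and Slc7a2 1.79-fold below DMSO + LPS, the Slc7a2 call being lost in 7 of 18 alternative settings. Gch1 was 1.47-fold lower, short of the 1.5-fold cutoff, and was not called. Ass1 moved the other way and rose 3.87-fold further. Nos2, Odc1 and Ass1 differed between 32 and 10 µM as well, in the same directions, though with only those 4 libraries in the fit Odc1 and Ass1 were not called. Asl, Slc7a1 and Srm were called in no comparison, save under LPS when libraries were scaled by the count of beta-actin (Actb). That scaling moved the median log2 fold change of all genes under LPS to −0.96, and all 3 were called lower.

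Values are CPM, the usual depth-scaled count with each library's total adjusted by TMM, and fold changes are log2 values with their standard error (SE) from edgeR's quasi-likelihood test in 1 fit of all 10 libraries. Adjusted p is the Benjamini-Hochberg value of that test over all 14172 genes, and a call required a change of 1.5-fold or more and an adjusted p under 0.05. The smallest p that exact permutation of 2 libraries against 2 allows is 0.333, so the calls rest on the spread pooled over conditions and genes. Nothing beyond the replicate labels states that replicates came from separate cultures, and the p-values then measure the spread between these libraries. In RNA from whole wells, fewer cells expressing a gene and less RNA per cell cannot be told apart.

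Library totals ran from 45966803 to 58976377 counts. All 9 macrophage markers were above 1 CPM in every library (summed level 7854 to 11776 CPM), and the 4 T cell and 3 B cell markers stayed at or below 0.332 CPM. The macrophage sum was lowest at 32 µM (7854 to 8280 CPM, against 10189 to 10321 CPM in DMSO + LPS). At that dose, where 4.17% of all tested genes were called, 3 of the 9 markers were called lower and 0 higher. These were Fcgr1 (log2 fold change −1.70), Itgam (−0.67) and Lyz2 (−0.61), while the other 6 ran from −0.38 for Cd14 to 0.40 for Csf1r. Fcgr1 was also called lower at 10 µM (−0.68), where 0.861% of genes were called. Between DMSO + LPS and DMSO, where 28.1% were called, Cd14 (1.54), Adgre1 (1.07), Itgam (0.98) and Fcgr1 (0.73) were called higher. Csf1r (−1.48), Mertk (−1.37) and Lyz2 (−0.65) were called lower there, and Cd68 and Spi1 were not called. The part of the marker differences in the results at 32 and 10 µM was not tested. Replicate 1 at 10 µM held 1777 counts over 4 epithelial markers, all above 1 CPM, and 206 counts over 4 fibroblast markers. Replicate 1 at 3.2 µM held 268 epithelial and 37 fibroblast counts, while the other 8 libraries held 0 to 5 epithelial and 3 to 14 fibroblast counts. In replicate 2 at 32 µM the gene Gm42418 took 2.46% of counts, against 0.138% in replicate 1. Annotated rRNA genes took 0.247% and 0.0778% in these libraries, and from 0.0835% to 0.160% in the others, the latter in DMSO replicate 2. Nqo1, an enzyme known for its response to electrophilic compounds, had log2 fold changes of 2.63, 1.66 and 0.34 at 32, 10 and 3.2 µM, and was called at 32 and 10 µM.

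The 3 sequences below stand directly upstream of Gch1, Odc1 and Ass1, 3 genes that LPS raised. With **1** at 32 µM, Odc1 was called lower and Ass1 higher, while Gch1 was lower but short of the fold cutoff. The sequences come from RefSeq promoter entries on GRCm38.p6, which held 4 of the 8 genes (Slc7a1 was the fourth). Each is written 5′ to 3′ on the gene's strand up to the annotated exon. Capitals mark the letters that matched a motif. The Gch1 sequence is chr14:47189414-47189663 on the minus strand, the Ass1 sequence chr2:31470020-31470206 on the plus strand, and the Odc1 sequence chr12:17544623-17544793 on the plus strand.
Gch1: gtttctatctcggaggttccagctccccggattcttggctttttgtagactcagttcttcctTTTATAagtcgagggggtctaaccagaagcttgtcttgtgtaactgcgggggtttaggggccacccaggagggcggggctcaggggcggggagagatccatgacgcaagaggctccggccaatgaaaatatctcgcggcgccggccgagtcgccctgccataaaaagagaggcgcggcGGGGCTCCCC
Ass1: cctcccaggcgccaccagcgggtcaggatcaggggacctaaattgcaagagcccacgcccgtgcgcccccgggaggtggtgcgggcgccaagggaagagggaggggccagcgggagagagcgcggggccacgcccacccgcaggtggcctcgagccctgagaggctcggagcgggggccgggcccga
Odc1: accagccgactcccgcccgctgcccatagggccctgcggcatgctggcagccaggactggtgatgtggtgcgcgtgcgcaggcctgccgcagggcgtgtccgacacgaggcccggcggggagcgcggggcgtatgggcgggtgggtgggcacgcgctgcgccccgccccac
In the Gch1 sequence the capitals at its end are a match to the κB consensus on the plus strand, 10 to 1 bases before the start, and the others, 188 to 183 bases before the start, are the reverse complement of TATAAA. The 2 matches do not overlap. Over the whole 250 bases before the start, searched on both strands for the κB consensus, TGACNNNGC, GAAA followed after any 2 bases by GAAA (the ISRE core), CACGTG, TGATGNAA and TATAAA, Odc1 held no match and Ass1 held CACGTG, 36 to 31 bases before the start and outside the stretch printed. Slc7a1, with 2 entries, held the reverse complement of TGACNNNGC 11 to 3 bases before its upstream start and TATAAA 28 to 23 bases before the other. Of 32851 mouse promoters of this length, 3.90% held the κB consensus, 12.4% TATAAA and 6.02% CACGTG. The other motifs were held by 10.2% (TGACNNNGC), 2.98% (the ISRE core) and 3.45% (TGATGNAA).

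**Figure D1:**
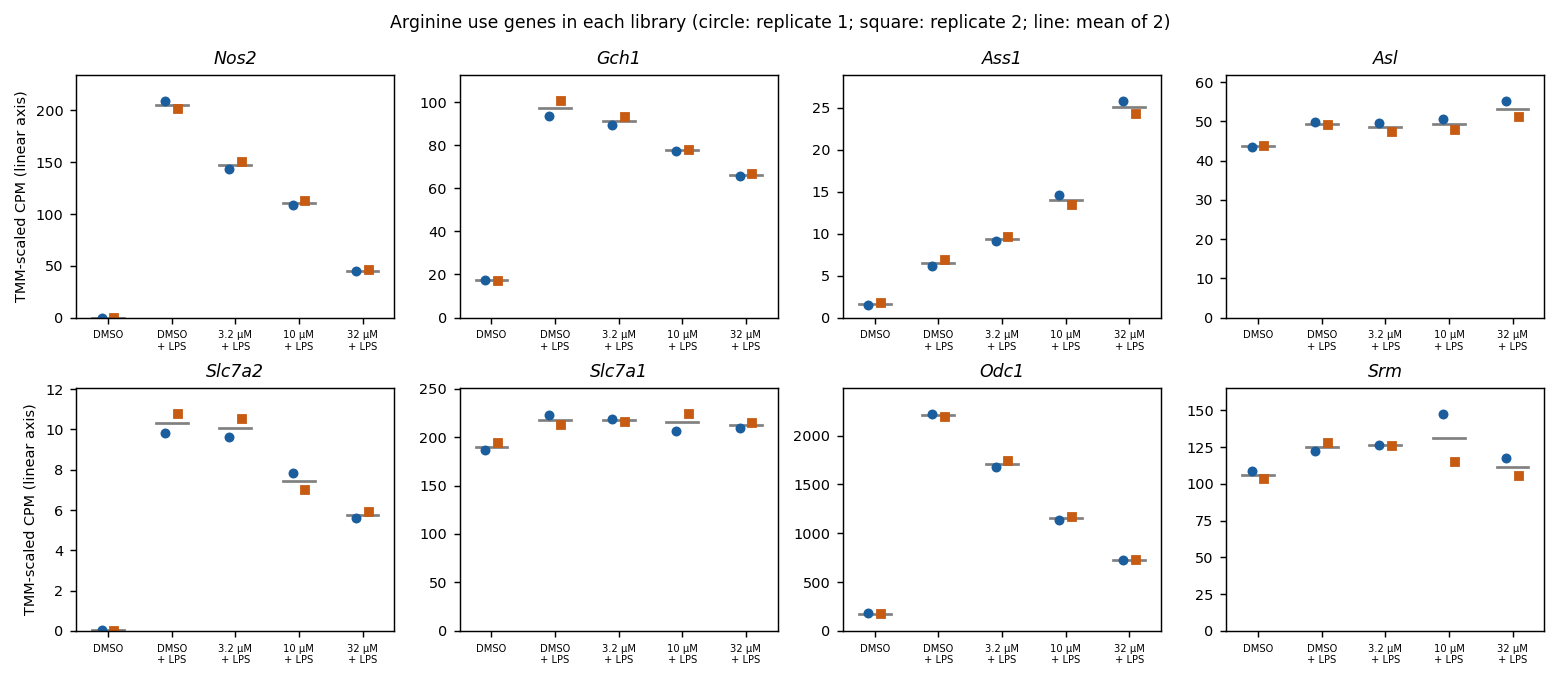
TMM-scaled CPM (linear y axis, a scale of its own for each gene) of 8 genes in each library, by condition along the x axis; circles are replicate 1, squares replicate 2 and grey lines the mean of the 2. At 32 µM, Nos2, Gch1, Slc7a2 and Odc1 lay below DMSO + LPS in both libraries, Ass1 reached 25.9 and 24.2 CPM, and Slc7a1 ran only from 187 to 224 CPM over all libraries.

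The number of genes called is given beside the share of all genes tested. The 10 genes were chosen with earlier results of these data known, so this comparison is a description and no test of the list. Between DMSO + LPS and DMSO, 5 of the 8 genes were called, all higher, where 28.1% of all tested genes were called. At 32 µM against DMSO + LPS, 4 of 8 were called (Ass1 higher, and Nos2, Slc7a2 and Odc1 lower), against 4.17% of all genes. At 10 µM it was 3 of 8 (Ass1 higher, and Nos2 and Odc1 lower), against 0.861%. At 3.2 µM, edgeR called 0 of 8 and 0% of all genes. There 3 of the 8 (Nos2, Ass1 and Odc1) had an unadjusted p below 0.05, beside 4.23% of all genes, and DESeq2 and edgeR on only the 4 libraries compared also called 0 of them. Over the alternative settings the log2 fold change at 3.2 µM stayed from −0.52 to −0.43 for Nos2 and −0.40 to −0.31 for Odc1. Both were thus short of the fold cutoff whatever their adjusted p, while Ass1 ran from 0.46 to 0.61. The direct test of 32 against 10 µM called 3 (Ass1 higher, Nos2 and Odc1 lower at 32 µM), against 1.32% of all genes. That of 10 against 3.2 µM called 0 in edgeR and in DESeq2, against 0.254% of all genes, with 4 of the 8 (Nos2, Gch1, Ass1 and Odc1) and 8.38% of all genes at an unadjusted p below 0.05. The 3 doses share the DMSO + LPS libraries. The median log2 fold change of the 8 genes was 2.26 under LPS and −0.36, −0.17 and −0.031 at 32, 10 and 3.2 µM. Over all tested genes these medians were 0.0026, 0.0082, 0.016 and 0.0040.

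Nos2 (ENSMUSG00000020826, chr11:78920787-78960254 on GRCm38) was close to absent without LPS, with 2 and 0 counts in DMSO. In DMSO + LPS it held 11999 and 9463 counts, which is 209.6 and 202 CPM. With **1** the level was 44.8 and 45.6 CPM at 32 µM, 109 and 113 CPM at 10 µM, and 144 and 150.0 CPM at 3.2 µM. The 5 conditions did not overlap, and each dose stood below the next lower one. Set against the 2 counts in DMSO, the ratio of DMSO + LPS to DMSO was 11899, with a 95% interval of 3294 to 98261 that covers counting error only. At 32 µM the ratio to DMSO was 2609 (722 to 21547). Both counts came from replicate 1, so that without replicate 2 the ratios were 6055 and 1327, and without replicate 1 they were at least 3896 and 854, taken against a floor of 3 counts in the library at 0. Against DMSO + LPS, the log2 fold change was −2.19 (SE 0.089, edgeR adjusted p = 5.41e-06) at 32 µM, −0.89 (SE 0.085, adjusted p = 0.00247) at 10 µM and −0.48 (SE 0.085, adjusted p = 0.457) at 3.2 µM. Between 32 and 10 µM it differed by −1.30 (SE 0.087, adjusted p = 2.20e-04), and between 10 and 3.2 µM by −0.40 (95% interval −0.60 to −0.21, adjusted p = 0.102).

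Gch1 (ENSMUSG00000037580, chr14:47153895-47189413), whose promoter is printed above, was already present without LPS. It had 17.4 and 17.2 CPM in DMSO and 93.6 and 101 CPM in DMSO + LPS, which differed by 2.49 on the log2 scale (SE 0.052, edgeR adjusted p = 1.28e-08). The level was 65.8 and 66.6 CPM at 32 µM, 77.3 and 78.0 CPM at 10 µM, and 89.6 and 93.1 CPM at 3.2 µM. The libraries at 32 and 10 µM lay below both of DMSO + LPS, while those at 3.2 µM, though below both too, differed from them by a log2 fold change of −0.090 (95% interval −0.20 to 0.023). At 32 µM the log2 fold change was −0.55 (SE 0.049, adjusted p = 2.51e-04) and at 10 µM −0.32 (SE 0.049, adjusted p = 0.0143), both short of the 1.5-fold cutoff. Over 18 alternative settings these values ran from −0.61 to −0.20 at 32 µM and from −0.38 to −0.14 at 10 µM. Between 32 and 10 µM the difference was −0.23 (95% interval −0.34 to −0.12, adjusted p = 0.0584).

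Ass1 (ENSMUSG00000076441, chr2:31470207-31520672), the rate-limiting enzyme of arginine synthesis from citrulline, rose with LPS and rose further at 10 and 32 µM. The 2 DMSO libraries held 85 and 98 counts and those of DMSO + LPS 351 and 321, while 1265 and 1096 counts were reached at 32 µM. The level was 1.45 and 1.73 CPM in DMSO, 6.13 and 6.84 CPM in DMSO + LPS, 9.15 and 9.60 CPM at 3.2 µM, 14.6 and 13.4 CPM at 10 µM, and 25.9 and 24.2 CPM at 32 µM. No 2 conditions overlapped. LPS alone gave a log2 fold change of 2.03 (SE 0.11, edgeR adjusted p = 2.05e-06). Relative to DMSO + LPS it was 1.95 (SE 0.10, adjusted p = 1.41e-05) at 32 µM, 1.11 (SE 0.100, adjusted p = 0.00182) at 10 µM and 0.53 (SE 0.10, adjusted p = 0.514) at 3.2 µM. The direct test gave 0.84 (SE 0.097, adjusted p = 0.00321) for 32 against 10 µM and 0.58 (SE 0.098, adjusted p = 0.0470) for 10 against 3.2 µM, the latter just under the fold cutoff. With only the 4 libraries compared, the adjusted p for 32 against 10 µM was 0.0859. Ass1 at 32 µM stood at 386% of its DMSO + LPS level, against 22.0% for Nos2.

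Asl (ENSMUSG00000025533, chr5:130011258-130029247), which completes the return of citrulline to arginine, was not called under LPS or at any dose. It ranged only from 43.5 and 43.8 CPM in DMSO, through 49.7 and 49.0 CPM in DMSO + LPS, to 55.3 and 51.2 CPM at 32 µM. Its log2 fold change under LPS was 0.18 (95% interval 0.046 to 0.31), and −0.029 or −0.79 when libraries were scaled by their totals or by Actb, which moved the median of all genes to −0.20 or −0.96. At 32 µM it was 0.11 (95% interval −0.022 to 0.24, edgeR adjusted p = 0.322). The ratio of Ass1 to Asl, both per kb of the longest annotated transcript, was 0.0473 and 0.0561 without LPS, 0.175 and 0.198 with LPS alone, and 0.665 and 0.673 with 32 µM of **1**.

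The 2 transporters behaved differently. Slc7a2 (ENSMUSG00000031596, chr8:40862396-40922308) had 3 and 0 counts in DMSO and 563 and 506 in DMSO + LPS, a ratio of 395 (95% interval 135 to 1919, counting error only). Without DMSO replicate 2, which held the 0, the ratio was 201, and without replicate 1 it was at least 194 against the same floor of 3 counts. Its level was 9.83 and 10.8 CPM in DMSO + LPS, 5.62 and 5.91 CPM at 32 µM, 7.84 and 6.99 CPM at 10 µM, and 9.62 and 10.5 CPM at 3.2 µM. The 32 and 10 µM libraries lay below both DMSO + LPS libraries, and those at 3.2 µM overlapped them. The log2 fold change was −0.84 (SE 0.20, edgeR adjusted p = 0.0342) at 32 µM, −0.47 (SE 0.19, adjusted p = 0.384) at 10 µM and −0.034 (SE 0.19, adjusted p = 0.999) at 3.2 µM. The call at 32 µM held in 11 of 18 alternative settings, and was lost under scaling by Actb (log2 fold change −0.49) and without either DMSO + LPS replicate (adjusted p = 0.168 and 0.247), either 32 µM replicate (0.131 and 0.117) or either 3.2 µM replicate (0.0945 and 0.0979).

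Slc7a1 (ENSMUSG00000041313, chr5:148327410-148399904) varied little between conditions. Its lowest library, in DMSO, held 187 CPM and its highest, at 10 µM, 224 CPM. The log2 fold change under LPS was 0.19 (95% interval 0.071 to 0.32), and −0.013 or −0.77 under scaling by totals or by Actb. At 32 µM it was −0.034 (95% interval −0.16 to 0.089, edgeR adjusted p = 0.812), and 0.32 under scaling by Actb, where the median of all genes was 0.36. Per kb of transcript, Slc7a2 stood at 0.0401 and 0.0461 of the Slc7a1 level in DMSO + LPS and at 0.0243 and 0.0249 at 32 µM.

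Odc1 (ENSMUSG00000011179, chr12:17544794-17551505), the rate-limiting enzyme of polyamine synthesis, was the most abundant of the 8 genes per kb in every library with LPS. It had 178 and 174 CPM in DMSO and 2222 and 2191 CPM in DMSO + LPS. With **1** it fell to 722 and 723 CPM at 32 µM and 1138 and 1166 CPM at 10 µM. The 3.2 µM libraries, with 1678 and 1737 CPM, also lay below both DMSO + LPS libraries, and no 2 conditions overlapped. The log2 fold change was 3.65 (SE 0.041, edgeR adjusted p = 7.95e-10) under LPS, −1.61 (SE 0.038, adjusted p = 5.21e-07) at 32 µM, −0.94 (SE 0.037, adjusted p = 5.01e-05) at 10 µM and −0.37 (SE 0.037, adjusted p = 0.111) at 3.2 µM. Between 32 and 10 µM it was −0.67 (SE 0.037, adjusted p = 1.26e-04). That call was lost with only the 4 libraries compared (adjusted p = 0.0756) and on the Actb scale (log2 fold change −0.51, under the fold cutoff). Between 10 and 3.2 µM it was −0.57 (SE 0.037, adjusted p = 0.00106), short of the fold cutoff.

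Srm (ENSMUSG00000006442, chr4:148591503-148594993), the next enzyme on the way to spermidine, was called neither under LPS nor at any dose. It had 109 and 103 CPM in DMSO, 122 and 128 CPM in DMSO + LPS, 117 and 105 CPM at 32 µM, 148 and 115 CPM at 10 µM, and 127 and 126 CPM at 3.2 µM. The highest value was in replicate 1 at 10 µM, the library with 1777 epithelial marker counts, and the part of those transcripts in this value was not tested. The log2 fold change under LPS was 0.24 (95% interval −0.015 to 0.50, edgeR adjusted p = 0.106), and −0.73 under scaling by Actb. At 32 µM it was −0.17 (95% interval −0.43 to 0.084, adjusted p = 0.446), and 0.18 under scaling by Actb. At 10 µM it was 0.066 (95% interval −0.19 to 0.32), and −0.13 without replicate 1.

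**Figure D2:**
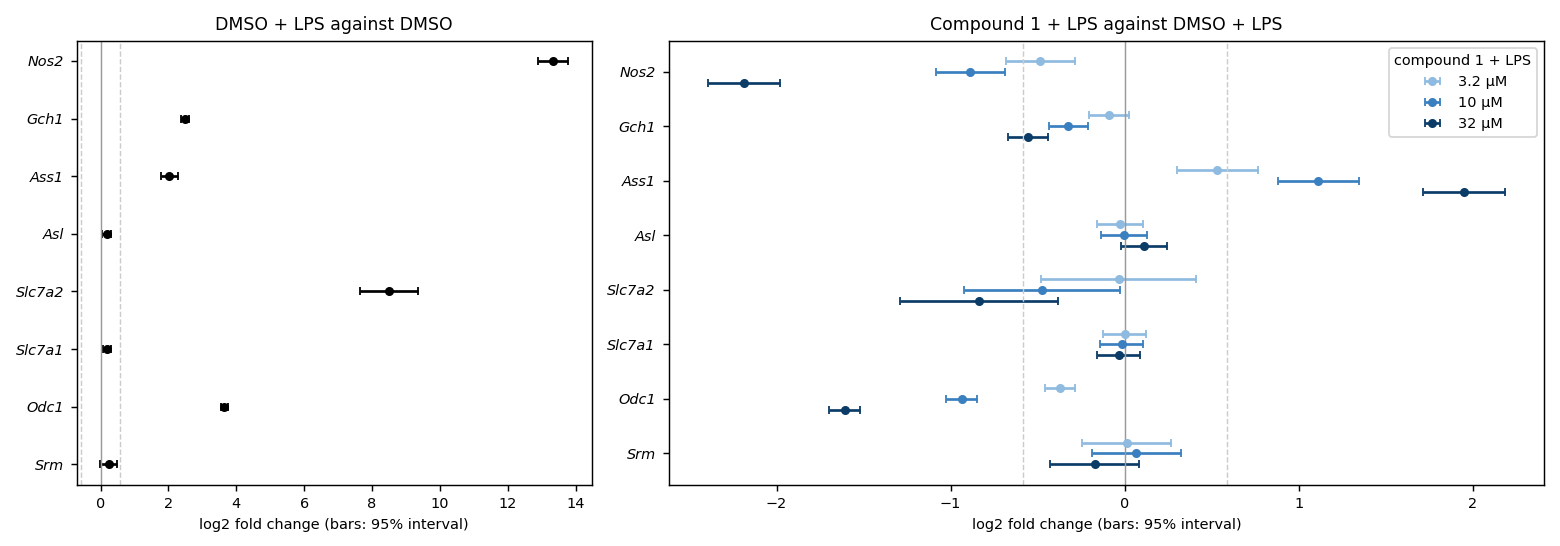
Log2 fold changes (x axis) of 8 genes (y axis) with 95% intervals from edgeR's quasi-likelihood fit, for DMSO + LPS against DMSO on the left and for 3.2, 10 and 32 µM of **1** with LPS against DMSO + LPS on the right; dashed lines mark the 1.5-fold cutoff. Nos2 and Odc1 move further left and Ass1 further right with dose, reaching −2.19, −1.61 and 1.95 at 32 µM, the widest intervals on the right are those of Slc7a2, and the left-hand points of Nos2 and Slc7a2 rest on 2 and 3 DMSO counts.

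The 3 genes that LPS raised and **1** lowered, and Gch1, which was below DMSO + LPS but not called at any dose, had different shares of their LPS rise left, taken as the level above DMSO relative to that of DMSO + LPS. At 32 µM, Nos2 kept 21.8% and 22.2% of the rise in the 2 libraries and Odc1 26.9% and 27.0%. Slc7a2 kept 54.4% and 57.2%, and Gch1 60.7% and 61.7%. These 4 ranges did not overlap, and the order at 32 µM was Nos2, Odc1, Slc7a2 and Gch1. At 10 µM the shares were 53.1% and 55.0% for Nos2 and 47.4% and 48.7% for Odc1, so Odc1 stood lowest. Slc7a2 kept 76.1% and 67.8% and Gch1 75.1% and 76.0% at that dose. At 3.2 µM the means ran from 71.5% for Nos2 and 75.5% for Odc1 to 92.6% for Gch1 and 97.6% for Slc7a2. Differences between genes in these shares were not tested.

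**Figure D3:**
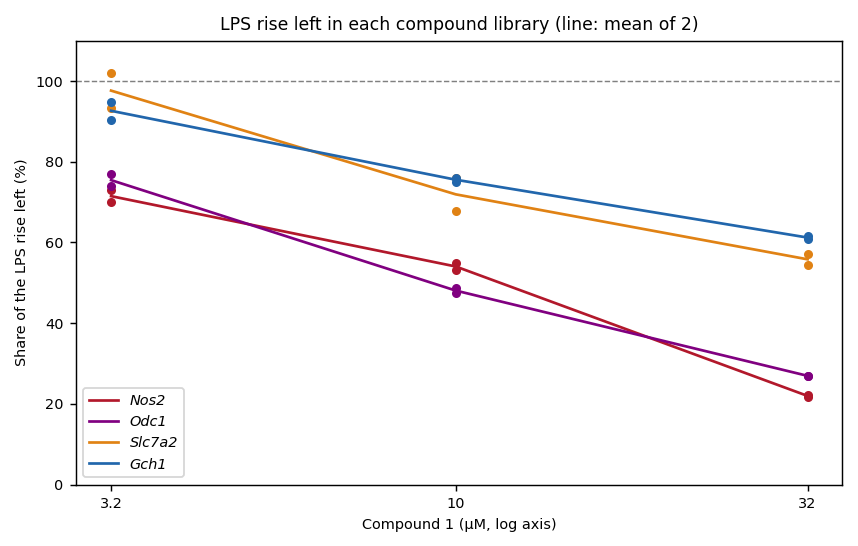
Share of the LPS rise left (y axis, percent; 100 is the mean of DMSO + LPS and 0 the mean of DMSO) against the concentration of **1** (x axis, µM, log axis) for 4 genes; points are the 2 libraries and lines join their means. Nos2 and Odc1 end lowest, at 22.0% and 26.9% at 32 µM.

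At 32 µM the 5 LPS-raised genes were still above DMSO without LPS, where 27.1% of all tested genes were called. All 5 were called higher and 0 of the 8 lower. The log2 fold changes were 1.94 for Gch1 (edgeR adjusted p = 5.38e-08), 3.98 for Ass1 (7.67e-08) and 2.04 for Odc1 (9.92e-09). Slc7a2 at 32 µM stood at a ratio of 222 to its 3 DMSO counts (95% interval 75.5 to 1079, counting error only), at 113 without DMSO replicate 2 and at least 109 without replicate 1.

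Levels of different genes were compared as CPM per kb of the longest annotated transcript. In DMSO + LPS the order was Odc1 at 999 ± 10.0 (SD, n = 2), Srm at 93.6 ± 2.99, Nos2 at 49.0 ± 1.36, Slc7a1 at 30.3 ± 1.02, Gch1 at 27.7 ± 1.44 and Asl at 20.5 ± 0.205. Below them stood Ass1 (3.82 ± 0.294) and Slc7a2 (1.30 ± 0.0843). The closest neighbours were Slc7a1, with 31.0 and 29.6, and Gch1, with 26.7 and 28.7, and none of these neighbours overlapped. In DMSO, Odc1 at 79.6 ± 1.33 and Srm at 79.2 ± 3.17 overlapped, while with lengths taken over all annotated exons Srm (66.3) stood above Odc1 (51.6). At 32 µM the order below Odc1 (327 ± 0.383) and Srm (83.1 ± 6.49) was Slc7a1, Asl, Gch1, Ass1 at 14.8 ± 0.670 and Nos2 at 10.8 ± 0.137. Nos2, which stood above Ass1 in DMSO + LPS, was below it at 32 µM. That order depends on the length used, since over all annotated exons Ass1 (10.7 and 10.0) overlapped Asl (11.4 and 10.6), Gch1 (10.5 and 10.7) and Nos2 (10.1 and 10.3) at that dose, and Asl overlapped Gch1. The ratio of Nos2 to Ass1 per kb was 13.8 and 11.9 with LPS alone, and with 3.2, 10 and 32 µM of **1** it was 6.36 and 6.32, then 3.02 and 3.41, then 0.700 and 0.760. The ratio of Odc1 to Srm was 0.989 and 1.02 without LPS, 11.0 and 10.4 with LPS alone, and 3.73 and 4.17 with 32 µM of **1**.

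Beta-actin (Actb), the reference gene of the RT-qPCR in the study, moved with the conditions, at 3477 CPM in DMSO, 6804 CPM in DMSO + LPS and 5339, 5998 and 6538 CPM at 32, 10 and 3.2 µM. Its log2 fold change was 0.97 (SE 0.042, edgeR adjusted p = 5.12e-07) under LPS and −0.35 (SE 0.041, adjusted p = 0.00122) at 32 µM. Per 1000 Actb counts, Nos2 had 31.0 and 29.4 counts in DMSO + LPS, 8.32 and 8.60 counts at 32 µM, 17.5 and 19.7 counts at 10 µM, and 22.1 and 22.9 counts at 3.2 µM. On that scale too the conditions did not overlap and Nos2 fell with dose. Odc1 had 329 and 320.1 counts per 1000 Actb counts in DMSO + LPS and 134 and 137 at 32 µM. Scaled to Actb, 3 of the 8 genes (Nos2, Ass1 and Odc1) were called at 32 µM, beside 11.3% of all tested genes on that scale.

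Around these 10 genes, 58 other genes of nitric oxide and tetrahydrobiopterin, of arginine, ornithine and citrulline, and of polyamines were listed, and 43 were tested. LPS raised 8 of the 43 and lowered 9, beside 28.1% of all tested genes called, and 26 were not called. In the nitric oxide and tetrahydrobiopterin list 0 of 12 rose and 3 fell. Among those that fell were the neuronal synthase Nos1 (log2 fold change −1.95, from 80 and 97 counts to 22 and 19) and the tetrahydrobiopterin synthesis enzyme Pts (−0.93). The median of this list was −0.29. Among 14 genes of arginine, ornithine and citrulline, 3 rose and 3 fell, with a median of −0.013. Those that rose were the amino acid transporter chain Slc3a2 (0.89), its cationic amino acid partner Slc7a7 (1.00) and the peptidylarginine deiminase Padi2 (1.03). Those that fell were Gatm (−1.29) and Gamt (−1.85), both of creatine synthesis from arginine, and the mitochondrial ornithine carrier Slc25a15 (−0.67).

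Among 17 polyamine genes, 5 rose with LPS and 3 fell, with a median of 0.041. Spermine synthase Sms (0.72), the spermidine and spermine acetyltransferase Sat1 (1.48), Sat2 (0.70), spermine oxidase Smox (0.99) and deoxyhypusine synthase Dhps (0.89), which uses spermidine to modify eIF5A, rose. The polyamine oxidase Paox (−0.76) and the transporters Atp13a2 (−1.02) and Atp13a3 (−0.65) fell. At 32 µM, where 4.17% of all tested genes were called, Sat1 alone of the 43 was called, with a log2 fold change of −0.76 (SE 0.054, edgeR adjusted p = 7.90e-05). It had 126 and 125 CPM in DMSO, 348 and 354 CPM in DMSO + LPS, and 204 and 209.8 CPM at 32 µM. Like Odc1, Sat1 sat between its resting and its LPS level at that dose. The log2 fold change of Sat1 at 10 µM was −0.54 (SE 0.054, edgeR adjusted p = 0.00254), short of the fold cutoff.

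Smox stood higher at each dose than in DMSO + LPS, short of the fold cutoff. It had 46.7 and 50.0 CPM in DMSO, 94.4 and 97.4 CPM in DMSO + LPS, 112 and 109 CPM at 3.2 µM, 124 and 122 CPM at 10 µM, and 131 and 134 CPM at 32 µM, with no overlap between conditions. Its log2 fold change was 0.47 (SE 0.047, edgeR adjusted p = 5.03e-04) at 32 µM and 0.36 (SE 0.047, adjusted p = 0.00774) at 10 µM. For 3.2 µM it was 0.21 (SE 0.047, edgeR adjusted p = 0.722), above the adjusted p cutoff as well. At 10 and 3.2 µM, edgeR called 0 of the 43, beside 0.861% and 0% of all genes, and DESeq2 also called 0. There 5 and 2 of the 43 had an unadjusted p below 0.05, close to the 12.1% and 4.23% of all genes. In the direct test of neighbouring doses, edgeR and DESeq2 called 0 as well, beside 1.32% (32 against 10 µM) and 0.254% (10 against 3.2 µM) of all genes in edgeR. There 7 and 4 of the 43 had an unadjusted p below 0.05, beside 12.5% and 8.38% of all genes. The list medians at 32 µM were −0.031, −0.074 and −0.095 for nitric oxide, arginine and polyamine genes, beside 0.0082 for all tested genes.

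**Figure D4:**
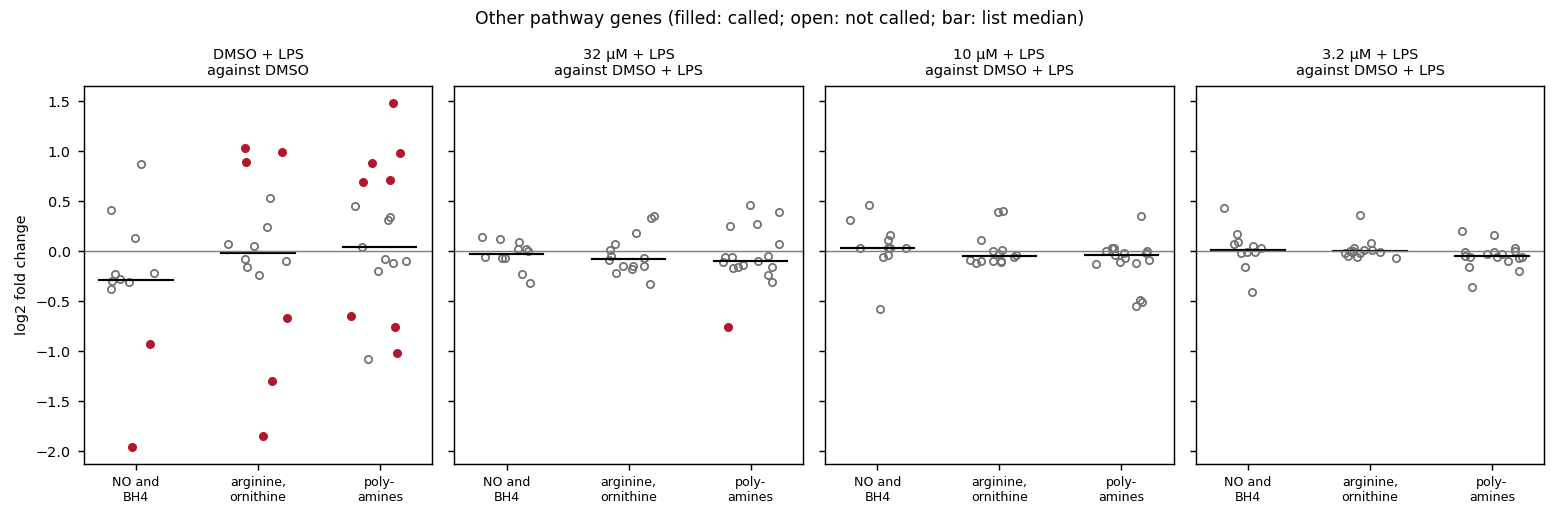
Log2 fold changes (y axis) of 42 other pathway genes in the lists of nitric oxide and tetrahydrobiopterin (BH4), of arginine, ornithine and citrulline, and of polyamines, for LPS and the 3 doses of **1**; filled points were called, open points were not, and bars are the medians over all tested genes of a list. Under LPS 16 points are filled, in both directions, and at 32 µM only that of Sat1, at −0.76.

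The genes whose level was most like that of Nos2 were Dusp2, Tnfrsf8, Mlkl, Il6 and Mapre2, ranked by Pearson's r of log2(CPM + 1) over all 10 libraries among 9553 genes with a mean of at least 5 CPM. The libraries fall into those with and without LPS, and the values share libraries and scaling, so the likeness is a description. Within the 8 libraries with LPS, r with Nos2 was 0.995 for Dusp2, a phosphatase of MAP kinases, and between 0.975 and 0.981 for the other 4. Il6, a cytokine, was at 0 in DMSO, at 96.8 CPM in DMSO + LPS and at 26.1, 49.8 and 80.8 CPM at 32, 10 and 3.2 µM. Within the same 8 libraries, r with Nos2 was 0.980 for Odc1, 0.963 for Gch1 and 0.937 for Slc7a2. For Ass1 it was −0.984, and for Asl, Slc7a1 and Srm it was −0.720, 0.373 and 0.514.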

How the data were processed

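Stranded poly(A) RNA libraries of RAW264.7 cells were sequenced, and the authors deposited unnormalized counts of reads on each Ensembl gene for the 10 libraries. The submitters' processing notes name Trimmomatic, FastQC, STAR, DESeq2 and the mm10 build. The counting tool, its use of strand and its annotation are not given in the sources used here. Symbols and positions came from GENCODE M21 on GRCm38 (42548 of 43432 identifiers matched), and promoters from RefSeq.

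Counts were filtered with filterByExpr (minimum count 10), scaled by TMM and fitted in edgeR 4.0.16 (R 4.3.3) with 1 mean per condition and a quasi-likelihood test (common biological coefficient of variation 0.128, 5 residual and 2.76 prior degrees of freedom). At 1 CPM the smallest library holds 45.97 counts. Cutoffs were 0.586 on the log2 scale and an adjusted p of 0.05. The rule named the genes of the list throughout, other pathway genes when called under LPS or at a dose, and the 5 genes most correlated with Nos2. Smox, below the cutoff at each dose, was called under LPS. The 10 genes and the lists were chosen with earlier results of these data known. Gm42418 and the replicate shares were added after values were seen. Nqo1 and Actb were checks. Values of 2 of the 10 genes, which enter no count or median of the 8, and of 1 other pathway gene, which stays in the counts and medians of its list, are not reported here.

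Alternatives were scaling by DESeq2 size factors, by totals or by Actb, dropping the filter or asking for a mean of 5 CPM, a replicate block, DESeq2 1.42.0 on all 10 libraries, edgeR on the 4 libraries compared, and leaving out each library in turn, with the library left alone assumed to vary as in the other conditions. The steps were tested on simulated data.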

Additional observations from a re-analysis of the deposited data

How the results depend on the processing

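Of the counts of called genes reported, 243 stayed within 1.5 times their value over the alternatives and 9 moved, while 767 of the 8 genes' log2 fold changes printed or plotted kept their direction and their side of the cutoffs, 10 lost a call, 4 gained one with the sign kept and 29 changed sign. Scaling to Actb moved the median of all genes to −0.96 under LPS, 0.36 at 32 µM and −0.60 for 32 µM against DMSO, and with it the calls among all genes to 10299, 1606 and 7283 (against 3989, 591 and 3840), of which 8.03%, 81.9% and 12.7% were higher (against 51.8%, 30.3% and 51.0%). At 10 µM, for 32 against 10 µM and for 10 against 3.2 µM, 77.5%, 40.8% and 71.9% of calls were higher on that scale (against 32.8%, 12.8% and 27.8%). Library size alone gave 4510 calls under LPS, 35.1% of them higher, and 34.8% higher for 32 µM against DMSO. On the Actb scale the other pathway genes called were 31 under LPS, 6 at 32 µM and 26 for 32 µM against DMSO (against 17, 1 and 14), and the 8 genes gave 8 calls under LPS, 3 at 32 µM and 1, Ass1, for 10 against 3.2 µM (against 5, 4 and 0). Signs changed on that scale for Asl (−0.79), Slc7a1 (−0.77) and Srm (−0.73) under LPS, all 3 then called lower, for Slc7a1 (0.32) and Srm (0.18) at 32 µM, for Asl (0.18) and Slc7a1 (0.17) at 10 µM, and for Asl (0.030), Slc7a1 (0.057) and Slc7a2 (0.024) at 3.2 µM. With library size alone they changed for Asl (−0.029) and Slc7a1 (−0.013) under LPS and Asl (0.0067) at 10 µM, and without a filter for Srm (−0.0030) at 3.2 µM. With 1 library left out, Slc7a1 at 32 µM ran from −0.069 to 0.00043 (above 0 without DMSO + LPS replicate 1), and at 10 µM Srm ran from −0.13 to 0.21, below 0 without 10 µM replicate 1. Values near 0 that took both signs there were Asl (−0.050 to 0.015) and Slc7a1 (−0.099 to 0.042) at 10 µM, and Asl (−0.061 to 0.0053), Slc7a1 (−0.034 to 0.035), Slc7a2 (−0.100 to 0.033) and Srm (−0.021 to 0.044) at 3.2 µM.

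The Odc1 call between 32 and 10 µM was lost on the Actb scale (−0.51). With edgeR on the 4 libraries compared, 1 of the 8 genes, Nos2, was called between 32 and 10 µM. Calls among all genes there were 5 between 32 and 10 µM, 41 at 10 µM, 66 at 3.2 µM and 0 between 10 and 3.2 µM (against 187, 122, 0 and 36). DESeq2 on all 10 libraries and the fit without a filter called 1 gene each at 3.2 µM, and DESeq2 called 54 between 10 and 3.2 µM. Leaving out 1 library at a time gave 0 to 1 calls among the 8 genes between 10 and 3.2 µM (Odc1, without replicate 2 at 10 µM or replicate 1 at 3.2 µM), 3 to 4 at 32 µM, and 0 to 1 other pathway genes at 10 µM (Sat1, without 10 µM replicate 2). Without DMSO + LPS replicate 1, Gch1 passed the fold cutoff at 32 µM (−0.61). Without replicate 1 or 2 of DMSO + LPS the calls among all genes at 10 µM were 52 and 59, and 227 without 10 µM replicate 2. Between 10 and 3.2 µM they were 6 and 5 without replicate 1 or 2 at 3.2 µM, 22 and 66 without replicate 1 or 2 at 10 µM, and 19 in both cases without replicate 1 or 2 of DMSO + LPS.

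Replicate differences correlated between conditions from −0.28 to 0.76, negative for DMSO + LPS against each of the other 4 and positive, from 0.26 to 0.76, among those 4. The labels give no shared batch, so the replicate numbers were not taken to pair the libraries. What these correlations come from was not tested. With a replicate block, the 8 genes gave 5, 4, 3 and 0 calls under LPS and at 32, 10 and 3.2 µM, the same genes as without it, and calls among all genes were 4089, 614, 173 and 0. Depth limits Nos2 and Slc7a2 in DMSO.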
